A study of Rattus norvegicus with 13 samples.

Results

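The cytosolic ribosomal protein genes of the newborn rat ventricular zone (VZ) were examined here in euthyroid and hypothyroid pups. The members were all rows of the deposited normalized counts with a mean of at least 10 over the 13 pups whose gene name is that of a large subunit protein (Rpl, with a number, or Rplp0 to Rplp2) or of a small subunit protein (Rps, with a number, Rpsa or Fau). A row is 1 annotated transcript. The rule found 86 rows of 76 gene names among 14606 rows that passed the same minimum, of 14716 rows in all. Of the 86 rows, 51 belonged to the large subunit and 35 to the small subunit. The lowest mean inside the minimum was that of Rps28, at 16.4, and 3 further rows with matching names lay under it, Rps12l2 with a mean of 6.98 and a pair of Rpl38 rows with 5.57 each. Of the 80 proteins of the mammalian ribosome (47 large, 33 small), 69 had a member row, Rack1 has a name outside the rule, and the others, among them Rpl7, Rpl10, Rpl13a, Rpl27a, Rpl36, Rpl37a, Rpl41, Rps7 and Rps26, were not analysed here. Another 7 member names (Rpl7l1, Rpl10l, Rpl22l1, Rpl31l4, Rps10l1, Rps18l1 and Rps27l) are paralogs or copies of these proteins.

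Pregnant Long Evans rats drank water with 0 ppm (control) or 3 ppm propylthiouracil (PTU), an inhibitor of thyroid hormone synthesis, from early pregnancy onward. The posterior VZ, the progenitor layer that lines the ventricle, was cut out by laser capture from 1 male pup of each litter on postnatal day 2 (PN2), so that 7 control pups and 6 PTU exposed pups stand for 13 litters. The sample labels call the dams mildly hypothyroid and the study moderately so, and both groups share strain, sex and age. The captured strip holds every cell type of the VZ, and its RNA was partly degraded according to the study's methods.

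Ribosomal proteins and ribosomal RNA form both subunits of the ribosome, the small one reading the mRNA and the large one joining amino acids. Cells make the proteins in matched amounts, and most of their mRNAs start with a C and a run of pyrimidines, the terminal oligopyrimidine (TOP) tract, through which mTOR signaling controls their translation. In neural progenitors the demand for ribosomes follows growth and division, and inherited loss of single ribosomal proteins is known best from Diamond-Blackfan anaemia, a failure of red cell production.

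The number of reads behind the normalized counts, estimated from the step between low values, was 22276175 to 43487256 in control pups and 28406886 to 44360639 in PTU exposed pups. The 3 highest rows, which carry no gene name, took 32.4 to 60.1% of the normalized counts in control pups and 23.9 to 57.0% in PTU exposed pups. Markers of VZ radial glia (Sox2, Pax6, Vim and 5 others) were present in every pup, as the labelled tissue requires. So were markers of choroid plexus and neurons, whose values are given at the end.

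Ribosomal protein transcripts lay higher in PTU exposed pups more often than lower, by small amounts, and none passed the test. The log2 fold change (PTU minus control, on log2(normalized count + 1)) was above 0 in 60 of 86 rows (69.8%) and below 0 in 26, against 50.7% above 0 among all rows. Its median over the members was 0.15, against 0.0038 over all 14606 rows. With the same total per pup, which moved the median of all rows to 0.20, 94.2% of member rows and 78.5% of all rows lay above 0, 60 member rows (69.8%) again lay above the median of all rows, and 33 (38.4%) were higher and 0 lower at an unadjusted p under 0.05, against 10.8% of all rows higher. In limma with Benjamini-Hochberg adjustment over all rows, 0 members had an adjusted p of at most 0.05, as was so for all rows (0%), and the smallest adjusted p of a member was 0.108, for Rpl24. The study's own test of the same pups (DESeq2) did report changed genes at a false discovery rate of at most 0.05, so the 0% belongs to this fit. The count of 0 members rested on PTU pup 2: without it, 6 members passed (Rpl15, Rpl24, Rpl31l4, Rpl6, Rps10 and Rps29), among 179 of all 14608 rows then tested. With pups weighted by quality (array weights) 4 members passed, among 40 of all rows. An unadjusted p under 0.05 was found for 26 members (30.2%), against 16.3% of all rows. Of these, 24 were higher in PTU exposed pups (27.9% of members, 8.11% of all rows) and 2 were lower (2.33% of members, 8.2% of all rows). In bulk tissue, fewer cells of a type and less RNA per cell cannot be told apart.

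Most ribosomal protein rows have high normalized counts, where small differences are measured more precisely. Of the 54 member rows whose mean reached 1000, 20 (37.0%) were higher at an unadjusted p under 0.05 and 0 were lower, against 10.8% higher and 10.5% lower among all 4506 rows at that level. Between means of 100 and 1000, 4 of 22 member rows were higher (18.2%) and 1, Rps10, was lower (4.55%), against 7.92% and 8.22% of all rows at that level. Below a mean of 100, 0 of 10 rows were higher and 1, the Rpl38 row with the fewer reads, was lower, against 4.08% and 4.20% of all rows. Without PTU pup 4, which held the most high values, 17 members were higher and 1 lower at an unadjusted p under 0.05, and 8.81% of all rows were higher.

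**Figure D1:**
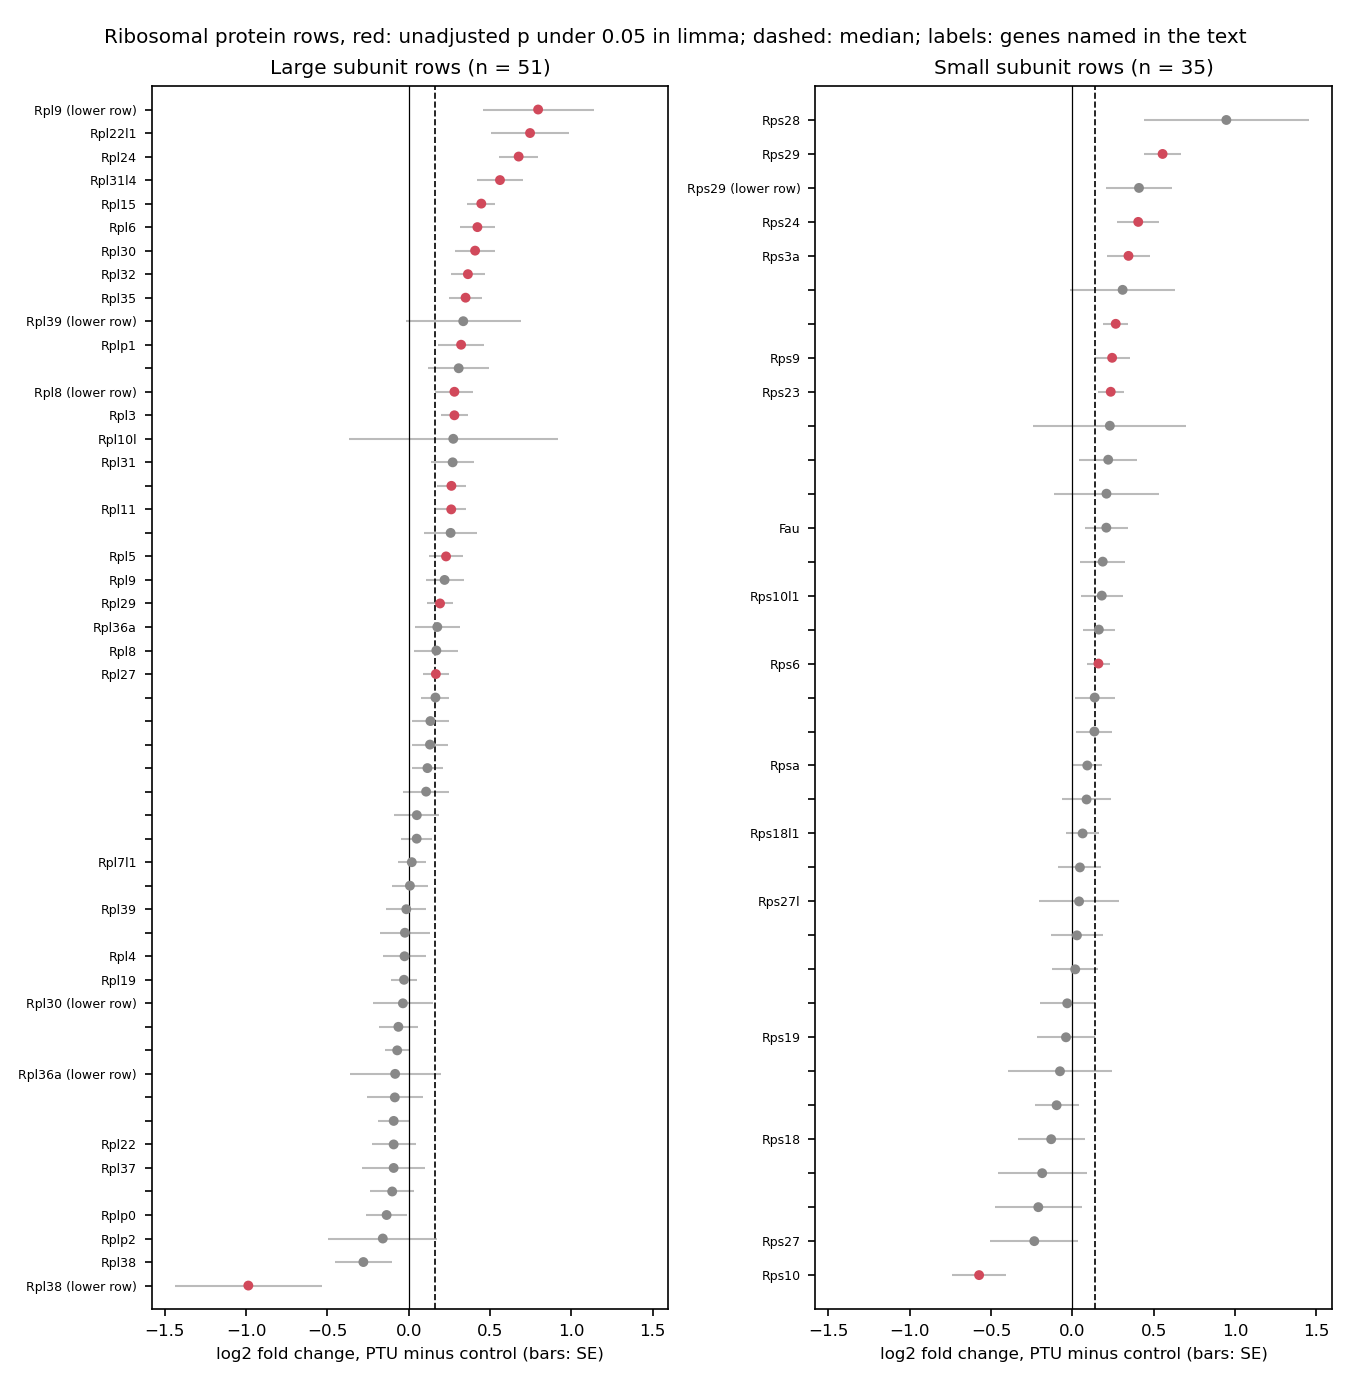
Log2 fold change (x axis, PTU minus control, bars 1 SE from limma, n = 7 control and 6 PTU exposed pups) of each ribosomal protein row (y axis, labels for genes named in the text), with large subunit rows on the left and small subunit rows on the right. Red points have an unadjusted p under 0.05 (18 large and 8 small), the dashed lines are the medians of 0.16 and 0.14, and none of the rows passed the adjusted threshold.

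The medians of the large and the small subunit lay close together, and that of the small subunit depended on PTU pup 4. With all pups the median log2 fold change was 0.16 over the 51 large subunit rows (middle 50% of rows from -0.032 to 0.28) and 0.14 over the 35 small subunit rows (-0.0070 to 0.23). Without PTU pup 4 the medians were 0.14 and 0.067. Above 0 were 34 large subunit rows (66.7%) and 26 small subunit rows (74.3%), against 50.7% of all rows. At an unadjusted p under 0.05, 17 large rows (33.3%) and 7 small rows (20%) were higher, against 8.11% of all rows. Lower were 1 large row (1.96%) and 1 small row (2.86%), against 8.2% of all rows. Among rows whose mean reached 1000, the shares that were higher were 13 of 35 large rows (37.1%) and 7 of 19 small rows (36.8%), with medians of 0.13 and 0.16. At that level 10.8% of all rows were higher. Between means of 100 and 1000, 4 of 13 large rows (30.8%) and 0 of 9 small rows were higher, against 7.92% of all rows at that level. The medians were 0.26 for these large rows and -0.039 for these small rows.

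Within single pups, the position of each subunit was taken as the median over its rows of the log2 value minus the row's mean over all pups. For the large subunit it ran from -0.13 to -0.0066 in control pups and from -0.077 to 0.29 in PTU exposed pups, where 5 of 6 pups lay above every control pup. PTU pup 1 was the exception, at -0.077. For the small subunit the control pups ran from -0.17 to 0.054 and the PTU exposed pups from -0.18 in pup 1 to 0.44 in pup 4, so the groups overlapped widely, with PTU pups 4 and 5 (0.20) above every control pup. The spread between pups within groups (SD) was 0.086 for the large subunit and 0.15 for the small subunit, and 0.097 for their difference in single pups. The difference of 0.027 between the subunit medians of the log2 fold change ran from -0.029 to 0.072 when 1 pup was left out. It was not tested. The summed normalized counts of the large subunit were 2.03 to 2.33 times those of the small subunit in control pups and 1.81 (pup 4) to 2.41 (pup 2) times in PTU exposed pups. The control range lay inside the wider PTU range.

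**Figure D2:**
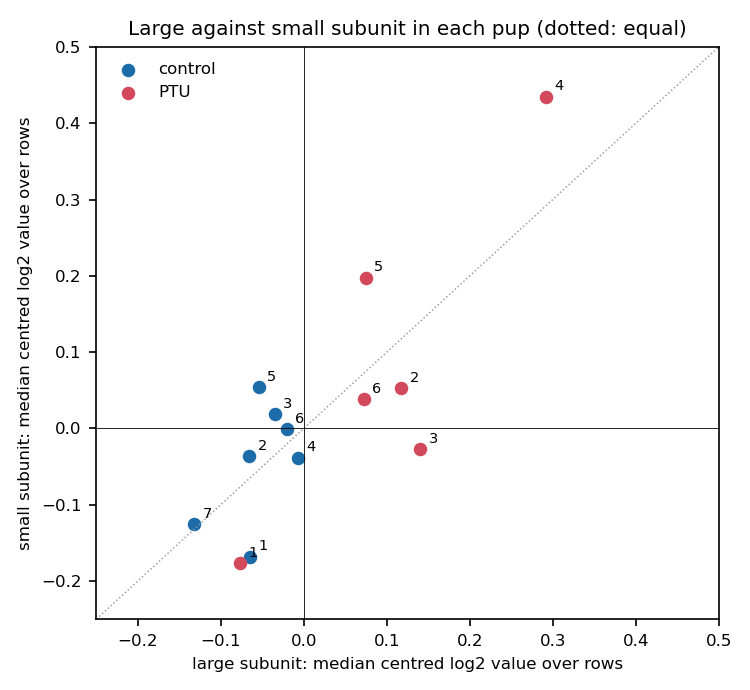
Position of the large subunit (x axis) and of the small subunit (y axis) in each pup, each as the median over rows of the log2 value centred on the row's mean. Numbers are replicates and the dotted line marks equal positions. PTU pup 4 lies farthest out on both axes (0.29 and 0.44), and PTU pup 1 lies beside control pup 1.

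Transcription start sequences of the members are known for the TOP tract, and the RefSeq promoter table (GRCr8) held 58 of the 76 gene names. A C at the annotated start followed by at least 4 pyrimidines on the transcribed strand was found in 20 of 58 (34.5%), against 2.63% of 33469 promoters in the table. With the C allowed anywhere within 5 bases of the start, 36 of 58 (62.1%) held it, against 17.0%. At the start itself, 15 of 34 large subunit genes (44.1%) and 5 of 24 small subunit genes (20.8%) had it. In the 250 bases before and 50 after the start, CCGGAAG on either strand was found in 18 of 58 (31.0%, all promoters 8.75%), and its other strand, CTTCCGG, can overlap a pyrimidine run that ends at the GG. TATAAA on either strand was found in 7 of 58 (12.1%, all promoters 14.2%). The sequences from 10 bases before to 20 bases from the start are given 5′ to 3′ for 8 genes that the values below turn on, with capitals from the first C within 5 bases of the start that is followed by at least 4 pyrimidines to the end of that run. Pyrimidines directly before this C, as in Rpl35, Rpl22 and Rps24, stay in lower case, so that a run can begin farther upstream than its mark:
Rpl24 (chr11:58128386-58128415, minus strand): tagggaggagattctctaccctataaggtg
Rpl35 (chr3:43165902-43165931, minus strand): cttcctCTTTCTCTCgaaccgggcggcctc
Rpl22 (chr5:168117951-168117980, plus strand): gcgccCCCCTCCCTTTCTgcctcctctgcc
Rpl22l1 (chr2:113683186-113683215, plus strand): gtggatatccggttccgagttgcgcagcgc
Rps24 (chr16:96507-96536, plus strand): ggtcctCTTTTCCTCCTTTacagctcgggc
Rps23 (chr2:23814507-23814536, plus strand): ccttcctgCCTCTCTTCTCTCTTTCTCTCg
Rps10 (chr20:5700725-5700754, minus strand): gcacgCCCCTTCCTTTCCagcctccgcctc
Rplp0 (chr12:46718371-46718400, minus strand): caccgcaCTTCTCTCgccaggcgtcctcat

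Rpl35, Rpl22, Rps24, Rps23, Rps10 and Rplp0 hold such a run in this window, whereas Rpl24 and Rpl22l1 do not. The median log2 fold change was 0.12 over 40 member rows whose gene has the run and 0.10 over 24 rows whose gene has a table entry without it. Rpl38, Rpl5, Rps2 and Rps15a hold a like run more than 5 bases before the start and are counted as without it. The split thus follows the annotated start, and it cannot decide whether fold changes go with the TOP tract. Rpl22, at a log2 fold change of -0.093 (adjusted p = 0.765), has the run, and its paralog Rpl22l1, at 0.75, lacks it.

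Only 3 of 86 member rows (3.49%) had groups that did not overlap, against 0.596% of all rows. They were Rpl24, Rpl15 and Rps29. Rpl24 (ENSRNOT00000107537), which forms a bridge to the small subunit and joins the large subunit late in its assembly, ranged in control pups from 1687 in pup 6 over a median of 2456 to 2622 in pup 1. In PTU exposed pups it ranged from 2918 in pup 2 over a median of 3738 to 4206 in pup 3. All 6 PTU exposed pups thus lay above all 7 control pups, and the mean was 159% of the control mean (2274 ± 372 and 3622 ± 525 normalized counts, SD). The log2 fold change was 0.68 with an SE of 0.12 (limma, adjusted p = 0.108).

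Rpl15 (ENSRNOT00000010759), a core protein of the large subunit, had the tightest control group of the 3, from 3028 over a median of 3294 to 3561. PTU exposed pups ranged from 3974 in pup 6 over a median of 4322 to 5618 in pup 4. The groups were separate, and without pup 4 the PTU exposed pups reached 4840. Its log2 fold change was 0.45 with an SE of 0.085 (adjusted p = 0.122). Rps29 (ENSRNOT00000041384), a small zinc-binding protein of the small subunit head, ranged from 3115 over 3508 to 4683 in control pups and from 4783 in pup 1 over 5252 to 6569 in pup 6 in PTU exposed pups. The groups were separate by a small gap. Control pups 1, 2 and 7 lay at 4170 to 4683, and the other 4 control pups lay at or under 3508. Its log2 fold change was 0.55 with an SE of 0.11 (adjusted p = 0.122), and a second Rps29 row with far fewer reads gave 0.41 (adjusted p = 0.328).

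**Figure D3:**
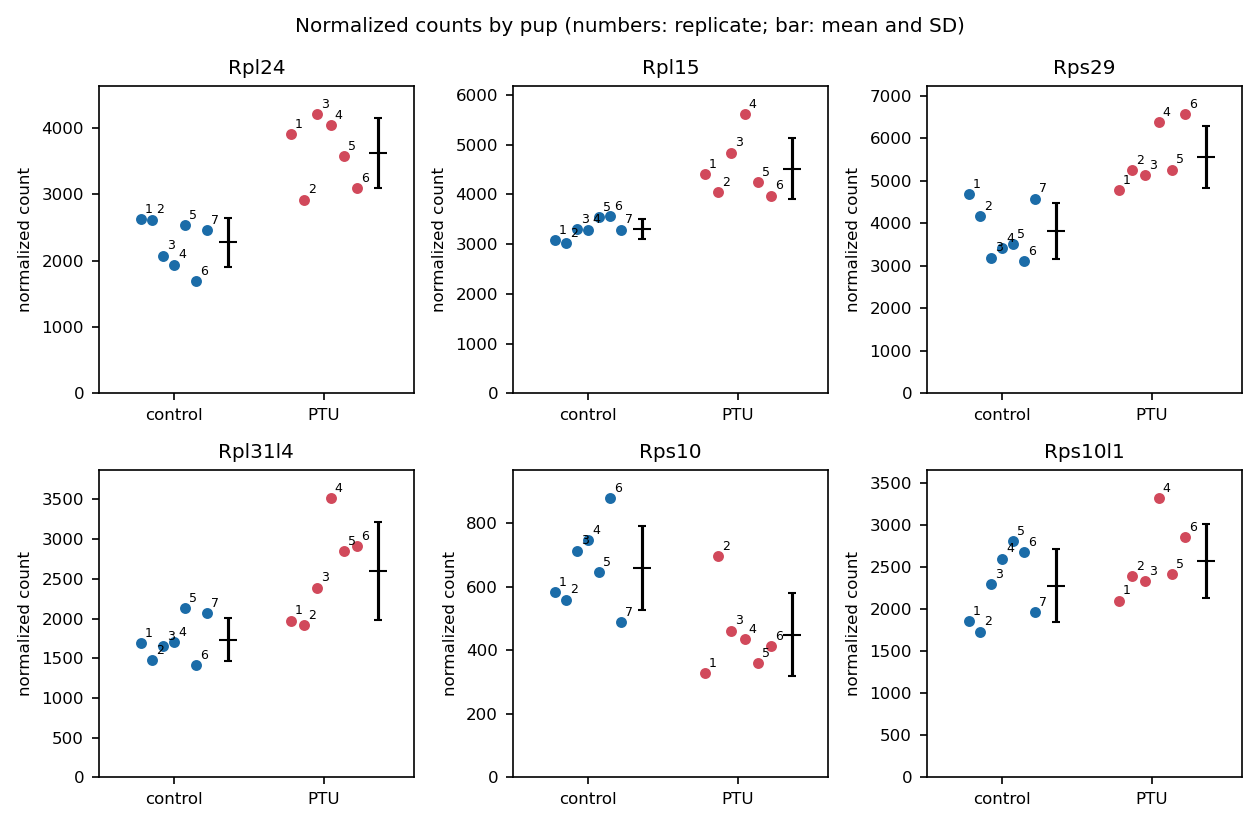
Normalized counts (y axis, from 0) of 6 rows by group (x axis), 1 numbered point for each pup, with the mean and SD beside each group. The groups do not overlap for Rpl24, Rpl15 and Rps29, they overlap for Rpl31l4 and Rps10l1, and for Rps10 the point of PTU pup 2 (697) lies among the control pups.

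Further large subunit rows with small unadjusted p lay higher in all or nearly all PTU exposed pups, with overlapping groups. Rpl6, an outer protein of the large subunit, was 1909 to 2610 in control pups (median 2037) and 2209 to 3410 in PTU exposed pups (median 2754), with 5 of 6 above every control pup. Its log2 fold change was 0.42 (SE 0.11, adjusted p = 0.127). Rpl35, at the exit tunnel where the new chain leaves the ribosome, was 1530 to 1862 in control pups (median 1784) and 1789 to 2873 in PTU exposed pups (median 2137). Again 5 of 6 lay above every control pup (log2 fold change 0.35, SE 0.10, adjusted p = 0.147). Rpl3, which lies next to the catalytic centre, was 5606 to 6505 in control pups and 6310 to 8956 in PTU exposed pups, and its fold change was 0.28 on the log2 scale (SE 0.082, adjusted p = 0.148). The remaining large subunit rows with an unadjusted p under 0.05 and a higher level included Rpl31l4, Rpl22l1, Rpl32, Rpl30, Rpl11, Rpl5, Rpl29, Rpl27, Rplp1 and the second rows of Rpl8 and Rpl9. The log2 fold changes of those named lay between 0.17 (Rpl27) and 0.80 (the second Rpl9 row, SE 0.34).

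The protein pair that binds 5S ribosomal RNA and, when unassembled, restrains Mdm2, the ligase that degrades p53, had like differences. Rpl11 was 2811 to 3429 in control pups and 3236 to 4890 in PTU exposed pups, where 5 of 6 lay above every control pup and pup 4 lay far above the rest (log2 fold change 0.26, SE 0.091, adjusted p = 0.182). Rpl5 was 5848 to 7622 in control pups and 5854 to 9423 in PTU exposed pups, with 3 of 6 above every control pup (0.23, SE 0.10, adjusted p = 0.292).

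The stalk proteins, which recruit elongation factors to the large subunit, did not share a direction. Rplp1 was 726 to 1026 in control pups (median 798) and 726 to 1377 in PTU exposed pups (median 1060), and its log2 fold change was 0.32 (SE 0.14, adjusted p = 0.273). Rplp0, the stalk base, was 18544 to 23780 in control pups (median 22120) and 15796 to 28666 in PTU exposed pups (median 18858). PTU pups 1, 3 and 6 lay below every control pup and PTU pup 2 above every control pup, so that the log2 fold change was -0.14 (SE 0.13, adjusted p = 0.611), -0.25 without PTU pup 2, -0.073 without PTU pup 1 and, with the same total per pup, 0.066, which is -0.14 relative to the median of all rows. Rplp2, with few reads, had a log2 fold change of -0.16 (SE 0.34, adjusted p = 0.845), and with the same total 0.039, or -0.17 relative to all rows.

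PTU pup 2 set several large subunit rows apart. Rpl38, known from mouse mutants for its part in translating Hox mRNAs, was 4449 to 6629 in control pups (median 5879), and in PTU exposed pups it was 3301 to 5168 in 5 pups and 8604 in pup 2. Of the PTU exposed pups, 3 lay under every control pup and pup 2 above every control pup, with a log2 fold change of -0.28 (SE 0.17, adjusted p = 0.427), -0.46 without pup 2, -0.18 without pup 1, and -0.077 with the same total per pup, or -0.28 relative to all rows. Rpl37 stood at 20608 in PTU pup 2 and at 9066 to 13161 in the others, against 9042 to 18751 in control pups. Its log2 fold change was -0.093 (SE 0.19, adjusted p = 0.844), and with the same total per pup 0.11, or -0.095 relative to all rows. A second Rpl38 row with a mean of 25.2 had the lowest value of all members, -0.99 (SE 0.45, adjusted p = 0.293).

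On the small subunit, 7 rows (20%, against 8.11% of all rows) were higher at an unadjusted p under 0.05. Among them were Rps29, Rps24, Rps23, Rps3a, Rps6 and Rps9. Rps24, one of the proteins mutated in Diamond-Blackfan anaemia, was 807 to 1048 in control pups (median 977) and 987 to 1807 in PTU exposed pups (median 1224). Pups 2 and 6 lay within the control range and pup 4 highest (0.40, SE 0.13, adjusted p = 0.171). Rps23, which lines the decoding centre and holds the longest marked run of the sequences above, was 3167 to 4120 in control pups and 4049 to 4854 in PTU exposed pups (0.24, SE 0.080, adjusted p = 0.175).

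Rps3a, near the mRNA exit, was 1467 to 2011 in control pups (median 1808) and 1653 to 3357 in PTU exposed pups (median 2135), where pup 4 was highest and pups 2 and 6 lay within the control range (0.34, SE 0.13, adjusted p = 0.225). Rps6, the substrate of the S6 kinases downstream of mTOR, was 5695 to 6789 in control pups (median 6061) and 6148 to 7476 in PTU exposed pups (median 6915). The groups overlapped, and 3 of 6 PTU exposed pups lay above every control pup (0.16, SE 0.070, adjusted p = 0.278). Rpsa, which also serves as a laminin receptor at the cell surface, had 0.092 (SE 0.093, adjusted p = 0.646), and 0.025 without PTU pup 2. Fau, made as a fusion with a ubiquitin-like protein, had 0.21 (SE 0.13, adjusted p = 0.437), and 0.11 without PTU pup 4. Rps19, the gene most often mutated in Diamond-Blackfan anaemia, was 358 to 670 in control pups and 384 to 632 in PTU exposed pups (-0.039, SE 0.18, adjusted p = 0.934, and with the same total per pup 0.16, or -0.042 relative to all rows). At a mean of at least 100, Rps27 and Rps14 had the lowest fold changes of this subunit after Rps10. Rps27 was 155 to 275 in control pups and 84.5 to 359 in PTU exposed pups (-0.23, SE 0.27, adjusted p = 0.689). Rps14 was 181 to 521 in control pups and 209 to 532 in PTU exposed pups (-0.21, SE 0.27, adjusted p = 0.725).

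Rps10, a protein of the small subunit head, was the 1 small subunit row that was lower at an unadjusted p under 0.05. It was 489 to 880 in control pups (median 647) and 328 to 697 in PTU exposed pups (median 425). Below every control pup lay 5 of 6 PTU exposed pups, while pup 2 (697) lay among the control pups. Its log2 fold change was -0.57 (SE 0.17, limma, adjusted p = 0.148), whereas its copy Rps10l1 had 2280 ± 433 in control and 2574 ± 444 in PTU exposed pups (0.18, SE 0.13, adjusted p = 0.498, and 0.10 without PTU pup 4). Summed, the 2 rows were 2940 ± 537 and 3023 ± 464 (SD), a log2 fold change of 0.047 (SE 0.12, adjusted p = 0.881, exact permutation test p = 0.730), so the lower level of Rps10 was not seen in the sum. The counting model divides reads between a gene and a near-identical copy, so the single rows of Rps10, Rps10l1, Rpl31, Rpl31l4, Rps18 and Rps18l1 are uncertain. Other genes with a copy row, Rpl6 among them, share this limit. In control pups the mean of Rps27a was 45.4 alone and 11782 with its copy, and that of Rps15a was 622 and 6310. A low mean of a single row thus need not be the level of the gene.

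Sums moved other rows by different amounts. Rpl31 alone had a log2 fold change of 0.27 (SE 0.13, adjusted p = 0.319), and Rpl31 with Rpl31l4 was 2374 ± 307 in control and 3373 ± 769 in PTU exposed pups (0.49, SE 0.13, adjusted p = 0.131), while Rpl31l4 alone had 0.56 (SE 0.14, adjusted p = 0.125). Rpl6 with its copy row was 9534 ± 847 and 11954 ± 1911 (0.32, SE 0.099, adjusted p = 0.165). Rps18 alone had -0.13 (SE 0.21, adjusted p = 0.785), and with Rps18l1 it was 7172 ± 831 and 7489 ± 1093 (0.057, SE 0.10, adjusted p = 0.810). In all, 10 member genes have several rows, and the row with fewer reads had the opposite sign to the other row for Rpl30 (0.41 and -0.036), Rpl36a (0.18 and -0.083) and Rpl39 (-0.015 and 0.34), each within 1 SE of 0 on at least 1 of the rows.

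Paralogs and copies of standard proteins were looked at apart. Rpl22l1, the paralog of Rpl22, was 105 to 241 in control pups (median 182) and 172 to 366 in PTU exposed pups (median 305). PTU pups 1, 3, 4 and 5 lay above every control pup, while pups 2 and 6 lay within the control range, and the mean was 169% of the control mean (0.75, SE 0.24, adjusted p = 0.171). Rpl22 itself was 643 to 1077 in control pups and 550 to 909 in PTU exposed pups, which overlapped. Rps27l, a paralog of Rps27 that p53 induces, was 63.9 to 157 in control pups and 57.2 to 111 in PTU exposed pups (log2 fold change 0.041). Rpl7l1 (0.019), Rps18l1 (0.063) and Rpl10l (0.27, SE 0.64) likewise differed by less than their SE.

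The high values were not spread evenly over the PTU exposed pups. The highest of the 13 values fell to a PTU exposed pup in 70 of 86 member rows (81.4%), against 52.3% of all rows, and the lowest fell to one in 27 (31.4%), against 51.0%. PTU pup 4 alone held the highest value in 38 rows, 19 of each subunit. PTU pup 2 held it in 15 rows, 13 of them of the large subunit, among them Rplp0, Rplp1, Rplp2, Rpl4, Rpl19, Rpl37 and Rpl38. PTU pup 1, in contrast, held the lowest value in 17 rows and the highest in 2.

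**Figure D4:**
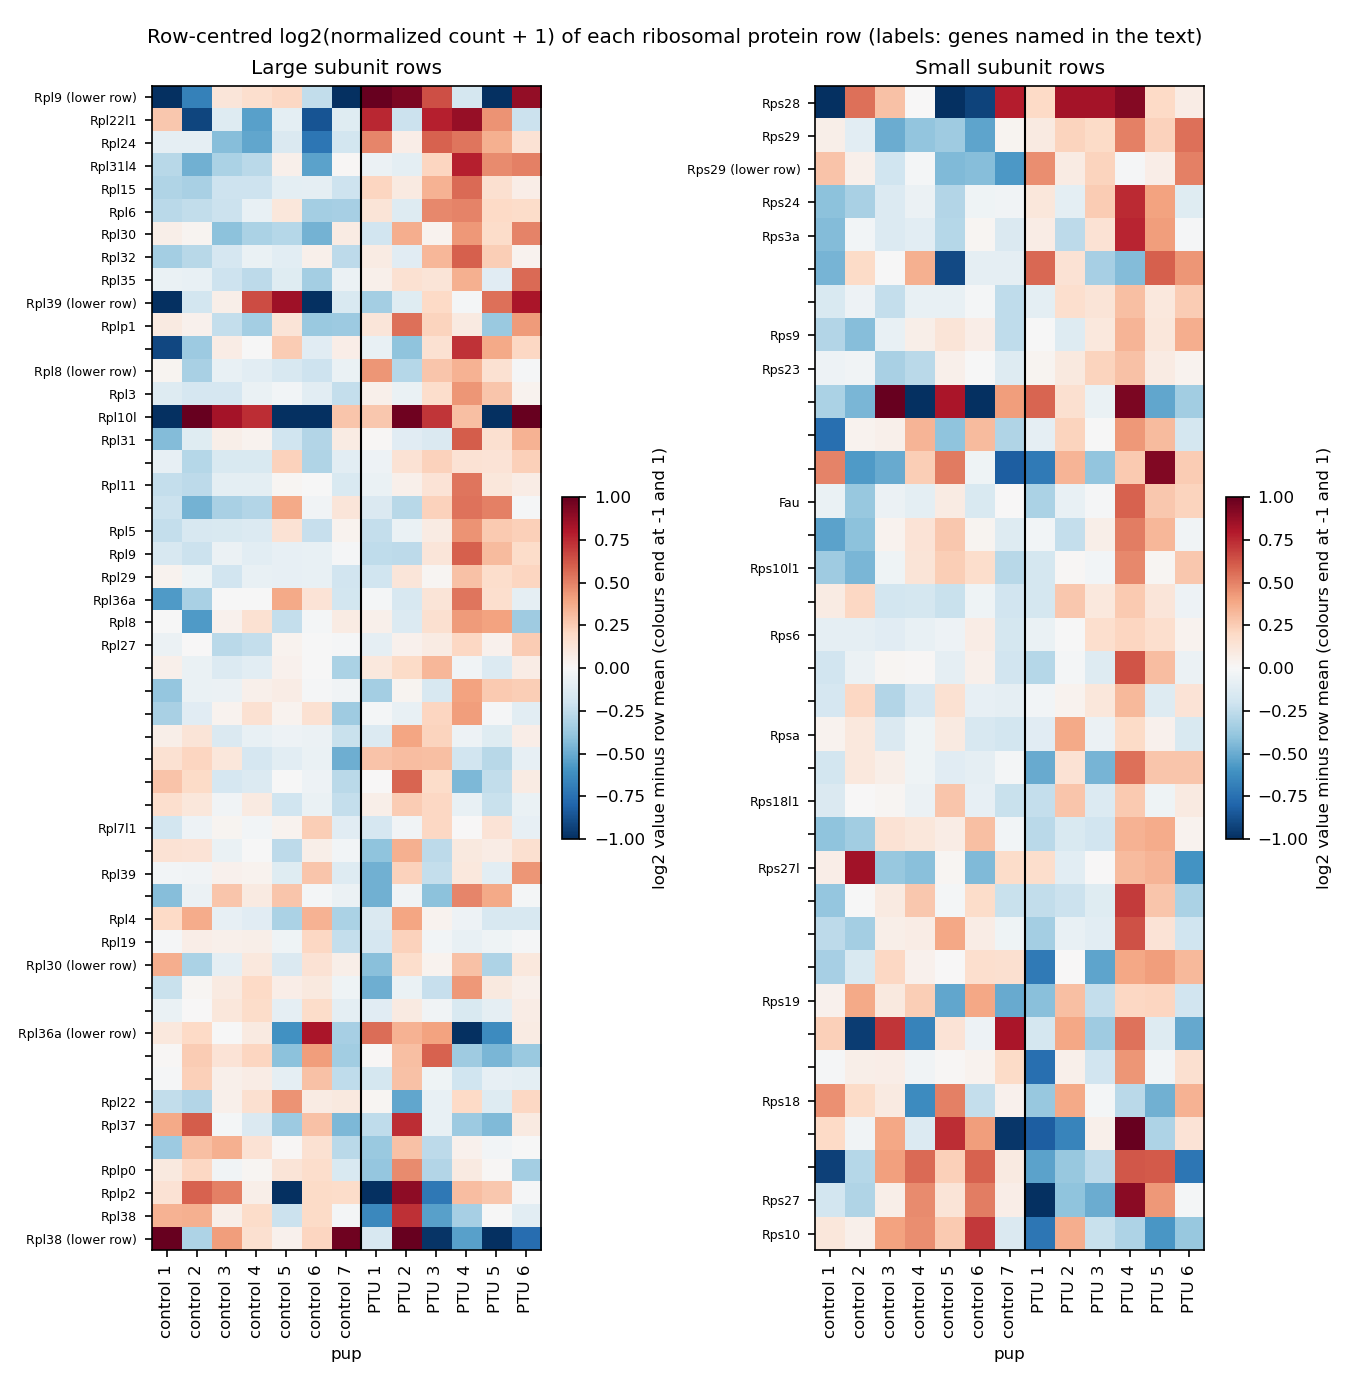
Log2 value of each member row (y axis, labels for genes named in the text) minus the row's mean in each of the 13 pups (x axis, control pups left of the black line), with rows ordered by log2 fold change and colours ending at -1 and 1. The column of PTU pup 4 is red over both subunits, that of PTU pup 2 is red mainly over large subunit rows, and PTU pup 1 is blue in many rows.

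By the place of the proteins in the ribosome, the counts were small. Of 9 exit tunnel rows, 1 was higher at an unadjusted p under 0.05 (11.1%, against 8.11% of all rows) and the median log2 fold change was 0.0074. Of 5 rows of the mRNA entry and decoding site, 2 were higher (40%, Rps9 and Rps23), with a median of 0.21, and Rps10 is not among these rows. Of 5 rows of the mRNA exit, 1 was higher (20%, Rps3a), with a median of 0.092. Of 13 rows of genes mutated in Diamond-Blackfan anaemia, 5 were higher (Rps24, Rpl5, Rpl11, Rpl15 and Rps29), or 38.5% against 8.11% of all rows. In that list 1 row, Rps10, was lower (7.69%, against 8.2% of all rows), and the median was 0.23. With 5 to 13 rows each, single rows set these shares.

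Other genes of the translation machinery were read from lists, and 0 of their rows passed the adjusted threshold in limma. Of 13 rows of other TOP mRNAs, which code for elongation and initiation factors, 12 had a log2 fold change above 0 and 4 were higher at an unadjusted p under 0.05 (30.8%, against 8.11% of all rows), with a median of 0.11. Eef1b2 had 0.42 (SE 0.14, adjusted p = 0.171), Eif3f 0.26 (SE 0.088, adjusted p = 0.175) and Eef1a1, the main elongation factor, 0.24 (SE 0.10, adjusted p = 0.264). Of 52 rows of ribosome biogenesis, which make and process ribosomal RNA, 3 were higher (5.77%) and 1 lower, with a median of -0.017. Gnl3 (nucleostemin, a nucleolar protein of stem cells) had 0.59 (SE 0.15, adjusted p = 0.133) and Snu13, a box C/D snoRNP protein, -0.32 (SE 0.13, adjusted p = 0.251). The mTOR pathway list had 1 of 17 rows higher (5.88%), Tsc1, an inhibitor of mTOR, at 0.30 (adjusted p = 0.199), and a median of 0.038. That list also holds the kinase genes Rps6ka2 and Rps6ka3, which lie outside the mTOR pathway proper. Mitochondrial ribosomal proteins had 4 of 71 rows higher (5.63%) and 1 lower, with a median of 0.051. Nuclear subunits of the respiratory chain had 13 of 67 rows higher (19.4%) and 5 lower (7.46%), with a median of 0.081. The medians of both subunits of the cytosolic ribosome lay above those of these lists, which share the same pups, and the differences between lists were not tested.

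**Figure D5:**
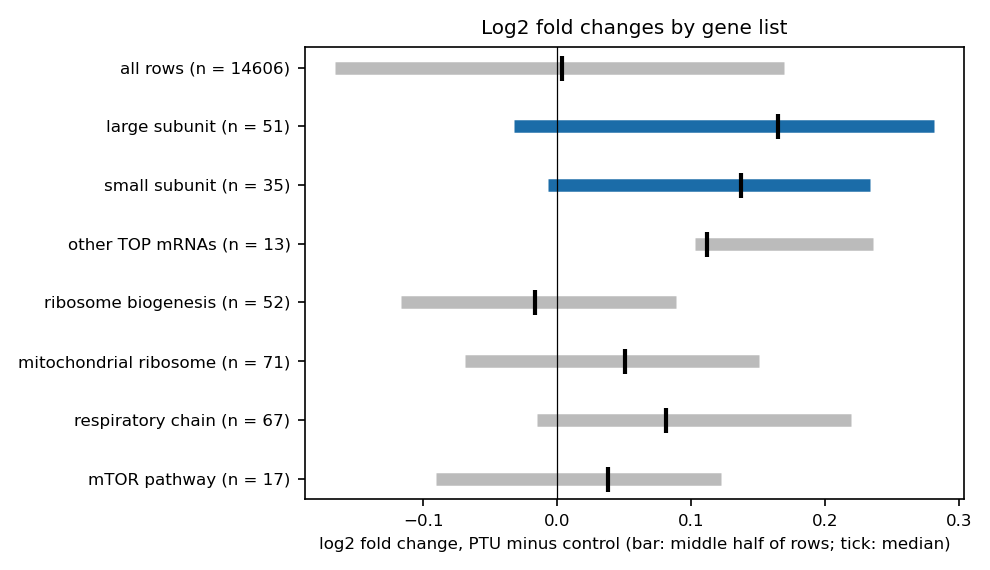
Log2 fold change (x axis, PTU minus control) over the rows of each list (y axis, number of rows in brackets), with the middle 50% of rows as a bar and the median as a tick. The large (median 0.16) and small subunit (0.14) lie to the right of all rows (0.0038) and of ribosome biogenesis (-0.017), and other TOP mRNAs (0.11) lie nearest to them.

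Markers of several cell types had values that differed between the groups beside the ribosomal protein rows. All 11 choroid plexus markers were found, with a median log2 fold change of -0.76, and 7 were lower at an unadjusted p under 0.05. The study states that choroid plexus cells were not part of the captured tissue. The summed normalized counts of these markers were 52605 to 147591 in control pups and 24452 to 105563 in PTU exposed pups. All 10 neuron markers had a log2 fold change above 0 (median 0.47, 5 higher at an unadjusted p under 0.05), with sums of 52963 to 77086 and 70026 to 122745. All 8 VZ radial glia markers had one below 0 (median -0.33, 5 lower), with sums of 73699 to 102847 and 61169 to 80981. Proliferation markers (6 rows) had a median of -0.034 and 0 rows with an unadjusted p under 0.05, and no marker found was at 0 in any pup. Of the other lists, intermediate progenitor markers had a median of -0.34 (1 of 3 lower), ependymal markers -0.27 (2 of 4 lower), oligodendrocyte precursor markers 0.24 (1 of 5 higher), endothelial markers 0.25 (0 of 6 past an unadjusted p of 0.05) and microglial markers 0.0023 (1 of 8 lower). The summed rows whose gene name marks them as mitochondrially encoded (mt-) were 3547 to 6094 in control pups and 5715 (pup 2) to 10038 (pup 4) in PTU exposed pups. The pup with the highest subunit positions thus also had the highest sum of these rows. Rows without a gene name are not in this sum, so it need not cover all mitochondrial RNA. In PTU pup 1 the neuron sum was the highest of all pups (122745) while its subunit positions were the lowest of the PTU exposed pups, and in PTU pup 4 the neuron sum was the lowest of the PTU exposed pups (70026) while its positions were the highest of all pups. The part of cell composition or of mitochondrial RNA in the ribosomal protein differences was not tested.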

How the data were processed

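Total RNA of the laser captured VZ was sequenced from 7 control and 6 PTU exposed pups, grouped by the sample labels. The authors trimmed reads (Trimmomatic), aligned them to mRatBN7.2 (STAR 2.7.8a), estimated transcript counts in Partek (an E/M model that shares out reads matching several transcripts) and applied median ratio normalization. The deposited values are thus a scaled signal and not raw counts, and are named normalized counts here. The same table holds the authors' DESeq2 comparison: p-values and FDR, the ratio of group means, its log2, a signed fold change score and group means. None of these was used.

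Rows whose mean reached 10 were put on the scale log2(normalized count + 1), on which differences of low rows are understated, and were tested with limma 3.58.1 in R 4.3.3 (variance trend, Benjamini-Hochberg, threshold 0.05). The sum of Rps10 and its copy was also compared by an exact permutation test over 1716 regroupings (two-sided). Members and gene lists were chosen with earlier results of these data known. Named rows are those without group overlap, the 5 highest means and 5 smallest p of each subunit, the 3 largest and smallest fold changes of each subunit at a mean of at least 100, the paralogs, and Rplp0, Rplp1, Rplp2, Rpsa, Fau, Rpl5, Rpl11, Rps6 and Rps19. Other list rows are the 3 smallest p of each list. Rows named beside these were chosen after their values were seen, and some items are not reported here.

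Reads per pup were estimated from the spacing of low values. Of the values from 20 to 150, 90.3 to 91.8% were whole multiples of 1 step (tolerance 0.1), too few for a model of counts. On simulated data, limma recovered 20, 44, 44 and 49 of 50 rows whose log2 values were shifted by 0.5, 1, 2 and 4, and called 9 of 14406 unchanged rows. Start sequences are from RefSeq (GRCr8), matched by symbol. Transcript lengths were not used, so genes are not ranked by level. The rows carry Ensembl identifiers, whereas the methods name RefSeq. The remaining steps ran in Python 3.11.15 (pandas 2.3.3, numpy 2.4.6, scipy 1.17.1), and figures in matplotlib 3.10.9. Alternatives were pseudocounts of 0.1 and 10, no filter, a minimum mean of 100, TMM factors, quantile normalization, the same total per pup with and without the 3 highest rows, rows of a gene summed, array weights, no variance trend, a robust variance prior, the replicate number as a block, leaving out each pup and, chosen after seeing the data, summing copies.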

Additional observations from a re-analysis of the deposited data

Results flagged for a closer look

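For each named row and each summary over the members, the highest and lowest pup of each group was set against the rest of its group by Dixon's criterion. Of 82 such checks, 7 marked a pup, where chance marks about 1 in 20. PTU pup 2 was marked 5 times, each time high: for Rpl37 with 20608 normalized counts (others 9066 to 13161), for Rpl4 with 15444 (others 10513 to 12050), for Rpl38 with 8604 (others 3301 to 5168), for the second Rpl38 row with 43.2 (others 5.40 to 18.5), and for Rps10 with 697 (others 328 to 462). PTU pup 4 was marked for Rpl11 with 4890 (others 3236 to 3725). Among control pups, pup 2 was marked for Rps27l with 157 (others 63.9 to 98.8).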

How the results depend on the processing

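The count of members past the adjusted threshold was 0 in the reported fit, 4 with array weights (Rpl15, Rpl24, Rpl31l4 and Rps29) and 1 with a replicate block (Rpl24, adjusted p = 0.0425, among 18 of all 14610 rows), which drops control pup 7. It was 0 to 6 when 1 pup was left out, the 6 being Rpl15, Rpl24, Rpl31l4, Rpl6, Rps10 and Rps29 without PTU pup 2, when 179 of all rows were called. With the same total per pup, the median log2 fold change was 0.37 for the large and 0.34 for the small subunit, and the median of all rows moved to 0.20, so that the subunits stood 0.16 and 0.13 above it. With 1 pup left out, the count at an unadjusted p under 0.05 was 18 to 28, the large subunit median 0.13 to 0.18, the small subunit median 0.067 (without PTU pup 4) to 0.19, and their difference -0.029 to 0.072. The sign of the log2 fold change turned for Rpl4 (0.013) and Rpl10l (-0.21) with array weights, for Rps10 with its copy summed (0.047, chosen after seeing the data), and with the same total per pup for Rplp0 (0.066), Rpl37 (0.11), Rpl4 (0.18), Rplp2 (0.039) and Rps19 (0.16). The last 5 lay -0.17 to -0.028 from the median of all rows under that scaling, so their sign relative to all rows did not turn. Leaving out 1 pup gave -0.36 to 0.077 for Rplp2, -0.13 to 0.040 for Rps19, -0.020 to 0.062 for Rpl7l1, -0.029 to 0.18 for Rps27l, -0.11 to 0.034 for Rpl4, -0.25 to 0.00087 for Rpl37 and -0.056 to 0.80 for Rpl10l. The cause was not tested. Replicate numbers belong to pups of different litters: same-numbered pups had correlations of -0.070 to 0.20, and 1 of 6 pairs correlated best with its own number, so the block result is given only here. Member rows with a mean under 100 had a median SE of 0.34, against 0.11 at a mean of at least 1000, so differences of low rows are known less precisely.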
